A study of Glycine max with 9 samples.

Results

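The 100 genes described here had lower transcript levels in 3 of 9 soybean root hair libraries than in any of the other 6. The 3 low libraries were 12h replicate 2 and 24h replicates 2 and 3, so they came from 2 ages and were not a group of the study. The genes were chosen on the deposited FPKM values, fragments scaled by transcript length and by mapped fragments. Of 56044 gene IDs, 17155 had a mean of 5 to 1000 FPKM over the 9 libraries. After median-of-ratios scaling, which divides a library by its median ratio to the geometric mean of the libraries over genes above 0 in all 9, 1787 of these were lower in all 3 low libraries than in each of the other 6. The lowest 48h library was also required to lie under the highest of 12h replicates 1 and 3 and 24h replicate 1, which left 1672. The 100 members are those with the largest difference of mean log2(scaled FPKM + 1) between the 3 and the 6 libraries. Every level of a member in these libraries therefore entered the choice, and the levels are given as a description with no test of the difference between the low libraries and the others.

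The study measured messenger RNA in root hair cells of Glycine max, genotype given as willam 82 in the labels, with 3 libraries in each of the groups titled 12h, 24h and 48h. All plants were grown aeroponically under controlled conditions, and the labelled ages were 276, 288 and 312 hours after sowing. The name of the deposited table speaks instead of tissue culture. The labels were followed, and this conflict over the source material was not resolved. No group received a treatment or carried an allele that the labels name. The labels do not say whether replicates were independent plants or runs of growth. The p-values cover only the spread from library to library, part or all of which may be technical.

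Root hairs are tubular outgrowths of single epidermal cells that lengthen at the tip and take up water and nutrients. In legumes they are also the cells through which rhizobia enter the root. Their transcripts are known to include many genes for wall loosening, vesicle traffic and ion uptake. None of the gene IDs (0 matched) could be paired with an entry of RefSeq's gene table for Glycine_max_v4.0. The table of values holds IDs alone. No function is therefore given for any member, the root hair label was not checked against marker genes, and no list of pathway genes was counted.

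The members held 0.0389%, 0.0733% and 0.0342% of the FPKM sum in 12h replicate 2, 24h replicate 2 and 24h replicate 3, against 0.252% to 0.518% in the other 6 libraries. Their median scaled FPKM was 3.91 in 12h replicate 2, 3.26 in 24h replicate 2 and 2.097 in 24h replicate 3. In the other libraries it was 13.8 and 18.97 in 12h replicates 1 and 3, 8.02 in 24h replicate 1, and 13.8, 13.9 and 11.7 in 48h replicates 1, 2 and 3. Over the 17155 genes at 5 to 1000 FPKM the library medians were close together, at 13.1 to 14.95 in the low libraries and 12.0 to 13.6 in the others. The mean of the 3 low libraries was 25.9% of the mean of the other 6 for the median member, with members between 0% and 38.4%. In such bulk samples, fewer cells of a type and less RNA per cell cannot be told apart.

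**Figure D1:**
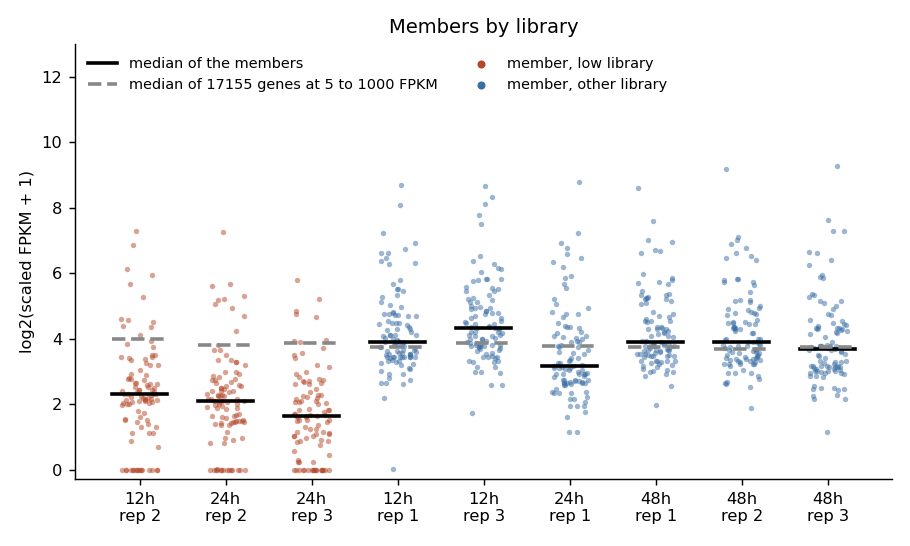
Members by library. Each point is 1 of the 100 members, the y axis is log2(scaled FPKM + 1), the solid bar is the members' median and the dashed bar the median of the 17155 genes at 5 to 1000 FPKM. The members' medians fall well below the dashed bars in the 3 low libraries (left), less so in 24h replicate 1, and slightly in 48h replicate 3.

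Several features of the whole libraries differed between the low libraries and the others, though the scaling factors did not separate them. The 100 highest genes of a library held 38.0% to 53.6% of its FPKM sum in the 3 low libraries and 22.5% to 33.1% in the other 6. The single gene with the highest mean over the series took 12.2% to 19.3% in the low libraries and 2.82% to 11.8% in the others. Between 37256 and 40885 genes were above 0 in the low libraries, against 41180 to 42430 in the others. Of the genes at 5 to 1000 FPKM, 79 to 157 were listed at 0 in the low libraries and 29 to 68 in the others. The scaling factors were 0.599, 1.07 and 0.798 in 12h replicate 2, 24h replicate 2 and 24h replicate 3, against 0.967 to 1.24 in the others. The factor of 24h replicate 2 thus lay within the range of the others. The part of these features in the members' levels was not tested. As deposited, with no scaling, all 100 members were still lower in each of the 3 low libraries than in any of the other 6.

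Differences of the members ran from -5.88 to -1.38 on the log2 scale (low minus other libraries), with a median of -1.69. Over all 1672 genes that met the conditions, the median was -0.80. Among the members, 28 had a difference below -2 and 14 below -3. The limit of 100 falls in a smooth part of the ranking. The last 3 members inside it had differences of -1.40, -1.40 and -1.38, and the first 3 genes outside it had -1.38, -1.38 and -1.38. Membership near the limit therefore separates genes with almost the same values.

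**Figure D2:**
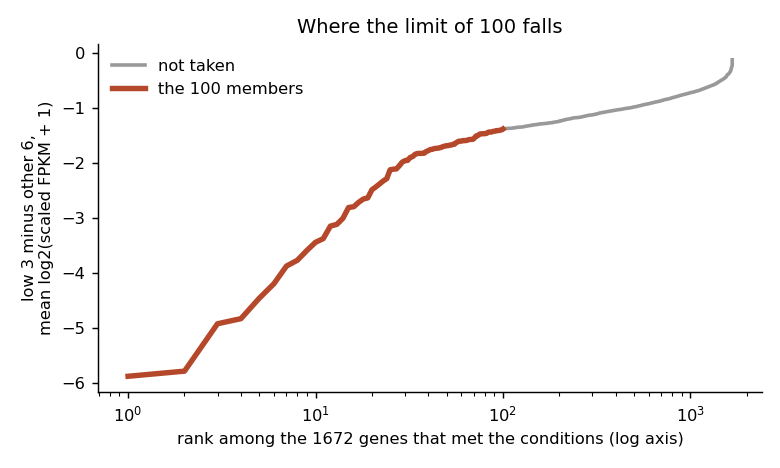
Rank among the 1672 genes that met the conditions (x axis, log scale) against the difference of mean log2(scaled FPKM + 1), 3 low minus 6 other libraries (y axis). The curve runs from -5.88 at rank 1 through -1.38 at rank 100 with no step there.

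The members were sorted into 3 kinds by their values in the low libraries, with a limit of 0.01 FPKM. This limit was not among the settings planned in advance, and the kinds were not shown to be separate groups. In the first kind, 12 members were under 0.01 FPKM in all 3 low libraries, and they held ranks down to 17. In the second, 9 members were under 0.01 FPKM in 1 or 2 of the low libraries, at ranks down to 27. The other 79 members had at least 0.01 FPKM in every low library and showed a graded decrease. Some of these were still near the floor, such as Glyma.11G178900 at 0.146 FPKM in 24h replicate 3.

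In the first kind the 12 genes had a median of 20.3 FPKM over the other 6 libraries, and 52 of the 72 values there were over 10 FPKM. Glyma.02G212300, with the largest difference of all members (-5.88), had 4.86e-05, 8.86e-05 and 2.28e-06 FPKM in 12h replicate 2, 24h replicate 2 and 24h replicate 3. In the other libraries it had 88.9 and 66.0 FPKM in 12h replicates 1 and 3, 104 FPKM in 24h replicate 1, and 40.7, 36.6 and 88.9 FPKM in 48h replicates 1, 2 and 3. The gap between the highest low library and the lowest other library, 4.93 on the log2 scale, was the widest of the 100 members.

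Glyma.14G023800, second in rank, was listed at 0 in all 3 low libraries. It had 311 and 54.2 FPKM in 12h replicates 1 and 3, 29.9 FPKM in 24h replicate 1, and 62.9, 108 and 15.4 FPKM in 48h replicates 1, 2 and 3. The 6 libraries in which it was present thus differed among themselves by 4.28 on the log2 scale, more than most members did.

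Glyma.04G093000, rank 11 and singled out after its values were seen, differed from the rest of the 12 in one more library. It had 0, 0.00277 and 0.000383 FPKM in 12h replicate 2, 24h replicate 2 and 24h replicate 3, and 0.0246 FPKM in 12h replicate 1. Its other values were 16.4 FPKM in 12h replicate 3, 5.55 FPKM in 24h replicate 1, and 20.5, 64.5 and 13.1 FPKM in the 48h libraries. Of the 12 genes, the other 11 had at least 1 FPKM in all 6 of the other libraries. Of all 56044 IDs, 25 were under 0.01 FPKM in all 3 low libraries and at 1 FPKM or above in each of the remaining 6, and 12 of the 25 had a mean too low to be members. An exact 0 may also stand for an estimate that failed, and the genes are therefore described only as listed at 0 or near it. Exact zeros occurred 14, 13 and 15 times among the members in 12h replicate 2, 24h replicate 2 and 24h replicate 3, and 0 times in the other 6 libraries.

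**Figure D3:**
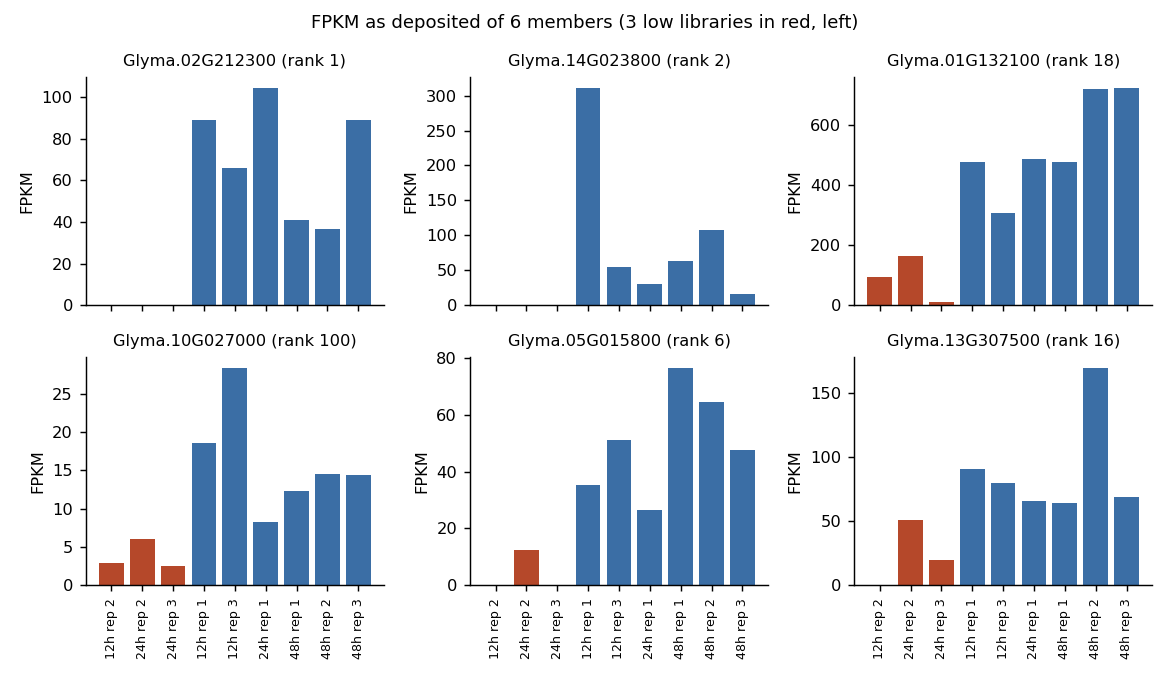
FPKM as deposited (y axis, linear, from 0, its own scale per gene) of 6 members in the 9 libraries, with the 3 low libraries in red on the left. The top left and top middle genes are near 0 in all 3 low libraries, and the bottom middle and bottom right genes are at 0 in 2 and 1 of them.

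The second kind consists of members whose low libraries differed from each other. Glyma.05G015800 was listed at 0 in 12h replicate 2 and 24h replicate 3 but had 12.3 FPKM in 24h replicate 2. The other libraries had 35.2 and 51.2 FPKM in 12h replicates 1 and 3, 26.6 FPKM in 24h replicate 1, and 76.6, 64.6 and 47.5 FPKM at 48h.

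Glyma.13G307500 was listed at 0 in 12h replicate 2 alone, with 51.1 and 19.5 FPKM in 24h replicates 2 and 3. The other 6 libraries had 90.3 and 79.5 FPKM in 12h replicates 1 and 3, 65.7 FPKM in 24h replicate 1, and 63.8, 170 and 69.1 FPKM at 48h. Its 24h replicate 2 lay only 0.11 below the lowest of the other 6 on the log2 scale after scaling, whereas 12h replicate 2 had a difference of -6.35 from the mean of the other 12h libraries. Both genes were picked as examples after their values were seen.

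Among the 79 graded members the difference ran from -2.81 to -1.38, with a median of -1.59, and the low libraries had 27.3% of the level of the others in the median gene. Glyma.01G132100, rank 18, had the highest mean of all members, 384 FPKM. It had 93.8, 164 and 11.0 FPKM in 12h replicate 2, 24h replicate 2 and 24h replicate 3. In the other libraries it had 476 and 308 FPKM in 12h replicates 1 and 3, 486 FPKM in 24h replicate 1, and 475, 719 and 723 FPKM in the 48h libraries. It was lowest in 24h replicate 3, where the difference from 24h replicate 1 was -4.90 on the log2 scale. In 24h replicate 2 that difference was -1.51.

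Glyma.10G027000 was the last gene inside the limit. It had 2.82, 6.06 and 2.55 FPKM in 12h replicate 2, 24h replicate 2 and 24h replicate 3. It had 18.6 and 28.4 FPKM in 12h replicates 1 and 3, 8.23 FPKM in 24h replicate 1, and 12.2, 14.6 and 14.4 FPKM in the 48h libraries. Here 24h replicate 1 stood nearest to the low libraries, as it did in most members.

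**Figure D4:**
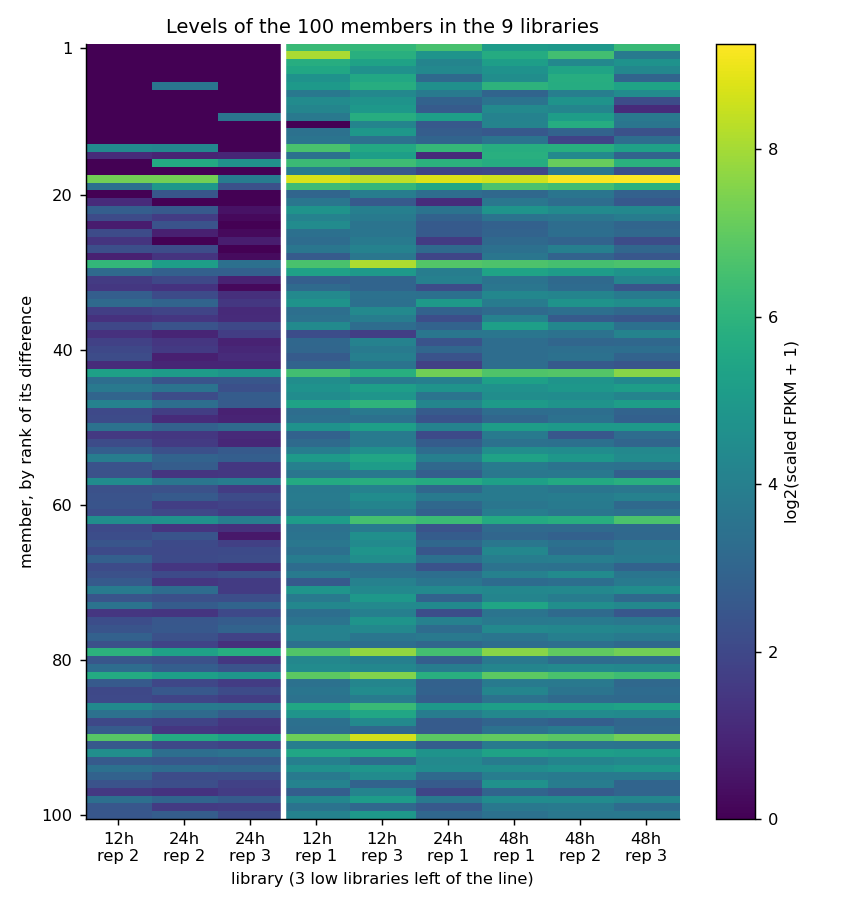
Levels of the 100 members (rows, by rank of their difference) in the 9 libraries (columns), as log2(scaled FPKM + 1) by colour, with the 3 low libraries left of the white line. The dark block at the top left holds most of the 12 members under 0.01 FPKM in all 3 low libraries, and the rows under it show graded decreases.

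Averaged over the 9 libraries, most members were modestly expressed. Their mean ran from 5.09 to 384 FPKM with a median of 11.4 FPKM, against a median of 13.9 FPKM over the 17155 genes at 5 to 1000 FPKM. The low libraries enter this mean, so the choice of members lowers it. In deposited FPKM the members' median was above that of the 17155 genes in 12h replicates 1 and 3 and 48h replicates 1 and 2. It was below in 24h replicate 1 (8.87 against 14.1) and 48h replicate 3 (13.9 against 14.6). There were 41 members with a mean under 10 FPKM, and 35.7% of the 17155 genes lay under that mean. Only 4 members reached a mean of 100 FPKM.

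The 3 low libraries were not alike. In 56 members 24h replicate 3 alone had the lowest scaled value, in 24 members 24h replicate 2 alone and in 6 members 12h replicate 2 alone, and 14 members had ties at 0. Over the 17155 genes at 5 to 1000 FPKM, 24h replicate 3 was the lowest of the 3 in 31.1%, 24h replicate 2 in 42.6% and 12h replicate 2 in 26.3%. Among the 1672 genes that met the conditions the counts in this order were 746, 572 and 354, each tie counted for 1 library. The median difference between 24h replicates 3 and 2 was -0.27 over the members, -0.064 over the 1672 genes and 0.081 over the 17155. The gap between the highest low library and the lowest other library had a median of 0.55 on the log2 scale. It was under 0.1 in 10 members and 1 or more in 17. In 27 members the spread among the 3 low libraries exceeded that among the other 6.

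Set against libraries of the same age, each low library was lower in all 100 members, as the rule requires. In 12h replicate 2 the median difference from the mean of 12h replicates 1 and 3 was -1.61, with members from -6.96 to -0.58. In 24h replicate 2 the median difference from 24h replicate 1 was -1.14, with members from -6.57 to -0.24. In 24h replicate 3 it was -1.52, with members from -6.57 to -0.13. Over the 17155 genes at 5 to 1000 FPKM these medians were 0.11, 0.019 and 0.059. Age as labelled was the same within each of these differences.

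**Figure D5:**
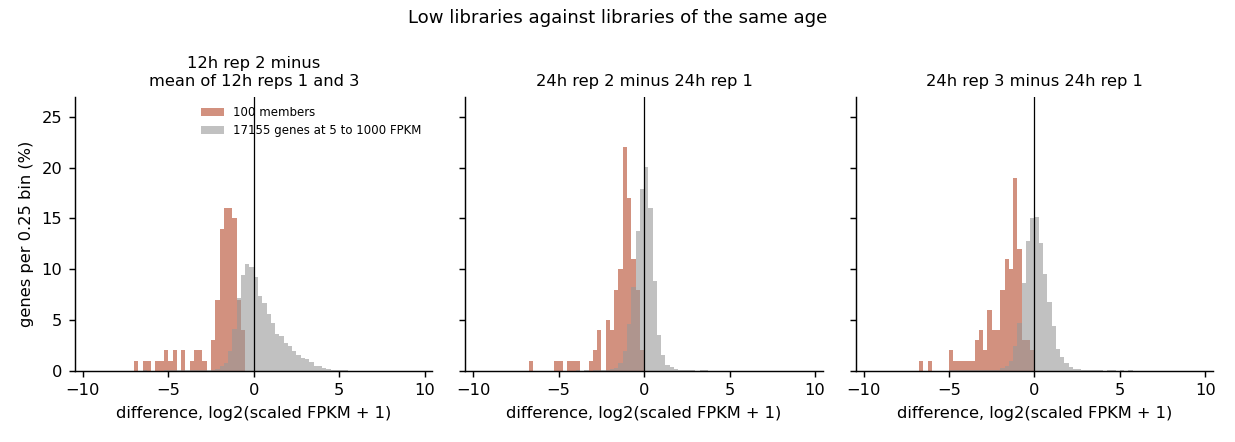
Differences of log2(scaled FPKM + 1) between a low library and the other libraries of its age (x axis), for the 100 members (red) and the 17155 genes at 5 to 1000 FPKM (grey), as a percent of genes per bin of 0.25 (y axis). All 100 members lie left of 0 in each panel, with medians of -1.61, -1.14 and -1.52.

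The remaining 24h library, replicate 1, lay between the low libraries, above which the rule places it, and the rest. It was the lowest of the other 6 libraries in 68 members, against 20.6% of the genes at 5 to 1000 FPKM and 1020 of the 1672 genes that met the conditions. On the log2 scale its level was 63.4% of the way from the mean of the low libraries to the mean of the 12h and 48h libraries outside them, for the median member (quartiles 48.1% and 83.5%). It was nearer to the low libraries in 32 members and above the mean of those 12h and 48h libraries in 13. Against 12h replicates 1 and 3 it had a median difference of -0.93, and 87 members were lower. Over the 17155 genes at 5 to 1000 FPKM the median of this difference was 0.075, with 7816 lower. Of the 1672 genes that met the conditions, 1521 were lower. Since 24h replicate 1 stands alone, this difference has no replicate check.

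Glyma.17G153000, singled out after its values were seen, ran the other way among the 12h and 24h libraries outside the low 3. It had 0.892, 1.02 and 1.74 FPKM in 12h replicate 2, 24h replicate 2 and 24h replicate 3, and 4.08 and 2.23 FPKM in 12h replicates 1 and 3. Its level was 12.8 FPKM in 24h replicate 1, and 14.1, 12.7 and 19.8 FPKM in the 48h libraries. So 24h replicate 1 was at the level of the 48h libraries there, and the difference from 12h replicates 1 and 3 was 1.69 on the log2 scale, the highest of the 100 members.

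The other libraries were not uniform either. The median range of a member over the 6 libraries was 1.41 on the log2 scale, against 0.93 for the genes at 5 to 1000 FPKM. Within the 48h libraries the median range was 0.58 over the members and 0.31 over those genes. The highest of the 6 was 12h replicate 3 in 51 members, against 35.5% of the genes at 5 to 1000 FPKM. In 68 members 12h replicate 3 was above 12h replicate 1, with a median difference of 0.42 over the members and 0.040 over those genes. Leaving out the 3 low libraries, 48h minus 12h had a median of -0.28, with 72 members lower at 48h. Over the 17155 genes at 5 to 1000 FPKM the median was -0.044 with 9314 lower, and of the 1672 genes that met the conditions 1300 were lower. The condition on the 48h libraries can bear on this sign. Without that condition 97 of the 100 members were taken again, but the sign was not recomputed for that list.

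The study's own comparison is between ages, and the members were read from a test over the whole table. It was limma's moderated test on log2(FPKM + 1) of the deposited values, over the 31518 genes that reached 1 FPKM in 3 or more libraries, with p-values adjusted by Benjamini-Hochberg and calls at an adjusted p under 0.05. All 100 members were among these genes. The same libraries chose the members, so their counts are set beside the background and support nothing. For 24h against 12h, 0 members were called (limma) against 0.0381% of all genes, with 12 members at an unadjusted p under 0.05, where 9.96% of all genes were. That unadjusted count moved to 46 members (14.9% of all genes) with median-of-ratios scaling and 38 (15.4%) with quantile normalization. With the replicate number as a block it was 38 (10.1%). Other pseudocounts, other filters and robust moderation gave 6 to 12 members, against 9.15% to 10.1% of all genes. Leaving out 1 library gave from 0 (13.2%) to 85 (34.65%). For 48h against 24h, 0 members were called against 0% of all genes, with 78 members and 17.9% of all genes at an unadjusted p under 0.05. Those 78 became 65 (17.4%) with median-of-ratios scaling and 91 (19.0%) with the replicate block. With 1 library left out they became 35 (8.36%) to 94 (20.3%). For 48h against 12h, 0 members were called against 0.117%, with 5 members and 10.8% of all genes at an unadjusted p under 0.05. Over the 3 ages together 0 members were called against 0.0286%, with 46 members and 13.6% of all genes at an unadjusted p under 0.05. Those 46 became 9 (9.27%) to 86 (35.2%) with 1 library left out.

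For the median member the group mean was 12.6 FPKM (12h), 4.995 FPKM (24h) and 15.8 FPKM (48h). The 24h mean was the lowest of the 3 in 95 members and the 12h mean in 5, and 24h holds both low replicates 2 and 3. The choice of members thus bears on these counts of group means. No share over all genes was computed for them, so they show nothing particular to the members. The members' median log2 fold change was -1.11 for 24h against 12h, 1.76 for the contrast of 48h with 24h and 0.71 for that of 48h with 12h. Over all tested genes these medians were 0.10, 0.23 and 0.34. With median-of-ratios scaling the members had -1.23, 1.49 and 0.31, and all genes had -0.021, -0.015 and -0.023. As fitted on deposited values, 98 members had a fold change below 0 in the contrast of 24h with 12h. All 100 were above 0 in the contrast of 48h with 24h, and 98 in that of 48h with 12h. The rule bears on these signs, since it places 12h replicate 2 and 24h replicates 2 and 3 below every 48h library after scaling. No share over all genes stands beside these counts, so they show nothing particular to the members. The spread within a group was wide beside the fold changes. For Glyma.01G132100 the group means were 292.5 ± 191 (12h), 220 ± 243 (24h) and 639 ± 142 (48h) FPKM (SD, n = 3 each). Its log2 fold change for 48h against 24h was 2.67 ± 1.05 (SE; limma adjusted p = 0.252). For Glyma.10G027000 the group means were 16.6 ± 12.9 (12h), 5.61 ± 2.87 (24h) and 13.7 ± 1.30 (48h) FPKM (SD, n = 3 each), and its log2 fold change for 48h against 24h was 1.26 ± 0.637 (SE; limma adjusted p = 0.311). In both genes 24h replicate 1 was the highest of the 24h libraries, as the rule requires after scaling.

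In deposited FPKM the lowest 48h library exceeded the highest 24h library in 75 members, where the share over all tested genes was 32.6%. The rule already places 24h replicates 2 and 3 below the 48h libraries after scaling, so this count depends on 24h replicate 1. The share over all genes instead needs every 24h library to be lower. After scaling, 24h replicate 1 was below all 48h libraries in 70 members, against 28.4% of the genes at 5 to 1000 FPKM. For 48h against 12h, 6 members did not overlap and were higher, against 19.8% of all genes. The condition on the 48h libraries can limit this count. Without that condition 97 of the 100 members were taken again, but the count was not recomputed for that list. The rule leaves little or no room for the other directions on the scaled values, so their counts of 0 show nothing about the members. They were 0 for 48h below 24h (11.7% of all genes), 0 for 48h below 12h (2.23%), and 0 for 24h above or below 12h (8.54% and 1.73%).

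With the replicate number as a block, 1 member was called over the 3 ages, against 0.257% of all genes (limma). The adjusted counts depended on 12h replicate 2. Without it, 58 members were called for 24h against 12h, all lower at 24h, where 7.68% of all genes were called lower (limma, adjusted p under 0.05). For 48h against 24h, 60 members were then called, all higher at 48h, where 9.98% of all genes were called higher. Over the 3 ages 49 members were called, against 9.91% of all genes. For 48h against 12h, 0 members were called without it, and their median log2 fold change was -0.082. Fitting 24h and 48h by themselves called 65 members higher at 48h, against 13.7% of all genes. The rule places 24h replicates 2 and 3 below 12h replicates 1 and 3 and below every 48h library after scaling. The direction of these calls and their excess over the background thus follow at least in part from the choice of members and support nothing. These fits used deposited values and were not repeated with scaling. Without all 3 low libraries, a setting chosen after seeing the data, 0 members were called in the 3 pairwise comparisons (limma), against 0, 0 and 22 of all genes for 24h against 12h, for the contrast of 48h with 24h and for that of 48h with 12h. In the same order, 45, 32 and 9 members were at an unadjusted p under 0.05, against 15.7%, 9.85% and 13.3% of all genes, and the members' median log2 fold changes were then -0.88, 0.72 and -0.082. The lone 24h library was assumed in that fit to vary like the others.

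In soybean IDs the number after Glyma names the chromosome. Of the members, 14 carried the number of chromosome 13, which 7.01% of the 17155 genes at 5 to 1000 FPKM carried. There were 9 on chromosome 18, against 4.94% of those genes, 7 each on chromosomes 3 and 17, against 4.61% and 5.03%, and 1 on chromosome 16, against 3.53%. The other chromosomes had 3 to 6 members each, such as 6 on chromosome 8, against 7.40%, and 1 member carried no chromosome number. The sources used here do not name the build behind the IDs, so coordinates are left out.

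Pairs of members within 5 rows of each other in the ID order were 3 in number, and they were named after being found. Glyma.11G178900 and Glyma.11G179000 are consecutive IDs. The first had 1.99, 2.25 and 0.146 FPKM in 12h replicate 2, 24h replicate 2 and 24h replicate 3, and 7.30 to 18.7 FPKM in the other 6 libraries. The second had 5.96, 8.65 and 4.48 FPKM in the same low libraries, and 15.3 to 41.7 FPKM in the other 6. Their lowest low library was the same, 24h replicate 3, with a lower value there in the first.

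Glyma.17G034700 and Glyma.17G034800 are also consecutive and had like profiles. They had 2.49996, 3.97 and 1.996 FPKM and 1.73, 4.41 and 2.38 FPKM in 12h replicate 2, 24h replicate 2 and 24h replicate 3. In 48h replicates 1, 2 and 3 they had 29.96, 17.3 and 8.29 FPKM and 44.2, 23.1 and 11.4 FPKM. Both were highest in 48h replicate 1 of all libraries. The third pair, Glyma.13G114600 and Glyma.13G114900, stands 3 rows apart, with differences of -1.40 and -1.43 on the log2 scale. Whether neighbours are near-identical copies that share reads was not checked, so their separate values are uncertain.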

How the data were processed

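The deposited values are FPKM in 1 table of 56044 gene IDs, 1 column per library. The authors' tools were TopHat2 2.1.0 and Cufflinks 2.2.1, per the submitters' processing notes. No build, annotation or filter is given in the sources used here. Column names were matched to sample titles. Over 36 library pairs, 0.741% to 3.00% of genes under 0.2 FPKM shared the commonest ratio (bins of 1%). Read numbers could thus not be recovered, so depth is unknown and counting intervals cannot be given. Members were selected in Python 3.11.15 with a pseudocount of 1. Ages were compared with limma 3.58.1 in R 4.3.3, with an intensity trend, 1 term per group over all 9 libraries and a prior of 5.893 degrees of freedom, after a test on simulated data.

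The members, lists and tests were chosen with earlier results of these data known. The naming rule covered genes of largest difference, of highest mean and at the limit, with at most 4 IDs where none has a name. The 2 of largest difference, that of highest mean and the last inside the limit were taken. Other genes were named after their values were seen. Lists by gene description and promoter motifs could not be used, since no ID was annotated. Alternatives were other scalings, pseudocounts, bounds and filters, robust moderation, a replicate block, fewer libraries and each library left out.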

Additional observations from a re-analysis of the deposited data

How the results depend on the processing

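The median difference of the members was -2.10 to -1.52 over the alternatives that change its values, and its sign is fixed by the choice of members. For the list itself, leaving out 1 library took 60 to 92 of the 100 again, with 65, 60 and 65 without 12h replicate 2, 24h replicate 2 and 24h replicate 3. A lowest mean of 1 FPKM took 61 and one of 10 FPKM took 59, whereas taking 50 genes leaves 50 by construction. Deposited values took 83, quantile normalization 70 and pseudocounts of 0.1 and 0.25 took 85 and 88. The conditions were met by 769 to 3643 genes over the alternatives.

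Leaving out 1 library called 0 to 58 members for 24h against 12h, 0 to 60 in the contrast of 48h with 24h, 0 in that of 48h with 12h, and 0 to 49 over the 3 ages, and each highest count is without 12h replicate 2. The fit of only the 6 libraries compared called 65 for 48h against 24h. The choice of members bears on all these counts, so they support nothing. Same-numbered libraries were not shown to be paired, with correlations of deviations from the group means between -0.0778 and 0.351. The replicate block called 1 member over the 3 ages, Glyma.11G035400 (limma adjusted p = 0.0369, named after the fact), and 0 in each pairwise comparison. The median log2 fold change for 48h against 12h was -0.082 to 1.09 with 1 library left out. It turned to -0.082 without 12h replicate 2 and without the 3 low libraries, and to -0.28 with scaling added. The cause was not tested, and the unknown depth limits what can be said of low values.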
